A study of Mus musculus with 8 samples.

Results

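The 7 transcripts Prm1, Prm2, Tnp1, Tnp2, Odf1, Akap4 and Smcp encode proteins that build the nucleus and the tail of the sperm. They were taken by gene symbol from a table of 19348 genes, and all 7 symbols were found. RNA-seq was performed on liver and epididymal white adipose tissue (eWAT, the fat pad that lies against the epididymis) of male C57BL/6 mice. All mice were 12 weeks old and had been fasted for 16 h. The mice carried either a whole-body Crtc1 deletion, made by CRISPR/Cas9 with guides against exons 2 and 4 (labelled Crtc1-/-), or were wild-type littermates (labelled Crtc1+/+). There were 2 libraries for each tissue and genotype, 8 in all, each from a piece of tissue, and the deletion was not limited to a cell type.

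During spermiogenesis the haploid spermatid replaces its histones, first with transition proteins and then with protamines, which pack the DNA into the condensed sperm head. The tail is assembled over the same period around an axoneme, with outer dense fibres, a fibrous sheath and a sheath of mitochondria. The genes for these proteins are transcribed in spermatids of the testis, and their mRNAs are stored and translated later. Many of them are controlled through cAMP response elements by CREM, a relative of CREB, and Crtc1 encodes a coactivator of CREB.

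Library depth was 16560085 to 19721481 counts, so that the floor of 3 counts used here stood at 0.152 to 0.181 counts per 1000000 (CPM). Crtc1 itself reached 57.6 and 27.5 CPM in the eWAT libraries labelled Crtc1-/-, 1 library above and 1 below the 36.9 and 36.9 CPM of those labelled Crtc1+/+. In liver it was at 22.1 and 18.6 CPM against 11.6 and 9.61 CPM. Neither difference passed edgeR's test (adjusted p = 0.396 and 0.184). The counts cover the whole gene and do not separate reads of the deleted exons, so they do not check the deletion, and every direction given below rests on the labels. Adipocyte and epididymal markers set the eWAT libraries apart. The 35 genes of the epididymal epithelium list held 9.89% and 11.3% of all counts in the libraries labelled Crtc1+/+ and 0.00548% and 0.00155% in those labelled Crtc1-/-. The 10 adipocyte genes held 0.256% and 0.394% against 4.63% and 2.20%, and the 11 hepatocyte genes held 10.7% in replicate 2 labelled Crtc1-/- against 0.129% to 0.658% in the other eWAT libraries.

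In the RefSeq annotation of mouse genome GRCm38.p6, Prm1, Prm2 and Tnp2 lie close together on the minus strand of chromosome 16. Prm1 runs from 10796332 to 10796823 (2 exons), Prm2 from 10791377 to 10792105 (3 exons) and Tnp2 from 10787935 to 10788655 (2 exons), so the 3 genes span 8889 bp. Tnp1 lies on chromosome 1 from 73015074 to 73015899 (minus strand, 2 exons) and Smcp on chromosome 3 from 92583866 to 92589073 (minus strand, 2 exons). Odf1 lies on chromosome 15 from 38219203 to 38226735 (plus strand, 2 exons) and Akap4 on chromosome X from 7067515 to 7078609 (plus strand, 6 exons). Their mRNAs are short, from 437 nt for Tnp1 to 2851 nt for Akap4. Prm1 overlaps Gm46563 and Gm10343, and Tnp1 overlaps 1700027A15Rik, all on the opposite strand and none listed in the table. How strand was used in counting is not given in the sources used here, so reads of these overlapping genes cannot be told apart from those of Prm1 and Tnp1.

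RefSeq promoter sequences (250 bases before to 50 after each start, GRCm38.p6) were matched for 6 of the 7 genes. They were searched on both strands for TGANNTCA, a form of the cAMP response element TGACGTCA with its middle bases left free, and this motif was chosen after the sequences had been seen. It was found in 4 of the 6 genes and in 14.1% of 32851 promoters of the same length. The matches are shown so that their letters can be compared, 30 bases each in the direction of transcription, with the 8 bases of the match in capitals.
Tnp1, chr1:73015975-73016004 (minus strand): gcaaaggttagTGATGTCAcaagagagctg
Smcp, chr3:92589031-92589060 (minus strand): ggagagtattaTGATGTCAtaaaagagctg
Akap4, chrX:7067469-7067498 (plus strand): tatagaaacagTGATGTCAtgaattttaag
Prm1, chr16:10796869-10796898 (minus strand): ctggtcctcttTGACTTCAtaattcctagg
Akap4, a further listed start, chrX:7067965-7067994 (plus strand): aataagatgctTGATATCAggaggttgtga
Counted from the start of transcription as base 1 to the first base of the match, the match lay at -94 in Tnp1, 25 in Smcp, -35 in Akap4 and -64 in Prm1, and at -234 from the further start of Akap4. The same 8 letters, TGATGTCA, stood in Tnp1, Smcp and Akap4. On either strand they were found in 3.62% of all promoters. The full element TGACGTCA was in none of the 6 and in 1.79% of all promoters. Prm2 and Tnp2 held no match in this window. These are matches of letters only, and they are not evidence of binding.

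All 7 transcripts were present in eWAT labelled Crtc1+/+ and at or near the floor in liver. The 22776 counts of the 7 genes made up 0.124% of replicate 1 labelled Crtc1+/+ (95% Wilson interval 0.123 to 0.126%, counting error only), and the 10882 counts in replicate 2 made up 0.0618% (0.0606 to 0.0629%). In eWAT labelled Crtc1-/- the sum was 1965 counts in replicate 1, or 0.0106% (0.0102 to 0.0111%), and 217 counts in replicate 2, or 0.00123% (0.00108 to 0.00141%). Liver held 2 and 13 counts in the libraries labelled Crtc1+/+ and 8 and 3 in those labelled Crtc1-/-. The eWAT groups did not overlap, and the replicates within each genotype also lay apart, more so among those labelled Crtc1-/-. In bulk tissue, fewer cells that carry these transcripts and less of the RNA per cell cannot be told apart.

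**Figure D1:**
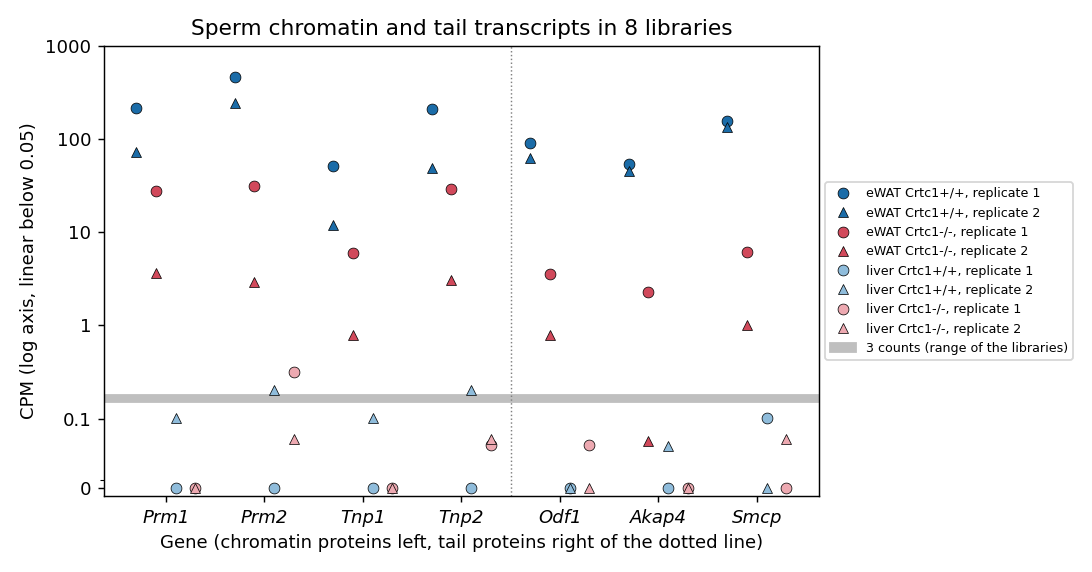
CPM of the 7 transcripts (log axis, linear below 0.05) in the 8 libraries, 1 point per library, coloured by tissue and labelled genotype and shaped by replicate. For every gene both eWAT points labelled Crtc1+/+ lie above both labelled Crtc1-/-, and the liver points lie at or near the grey band, which marks 3 counts.

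Among the members, the protamine Prm2 had the highest CPM in both eWAT libraries labelled Crtc1+/+. Prm1 (NCBI Gene 19118), the arginine-rich protamine that all mammals use, reached 218 and 73.5 CPM in the eWAT libraries labelled Crtc1+/+, against 27.9 and 3.63 CPM in those labelled Crtc1-/-. The lower library labelled Crtc1+/+ was 2.64 times the higher one labelled Crtc1-/-, and the log2 difference was -2.98 ± 1.03 (SE, n = 2 each), which did not pass edgeR's quasi-likelihood test after Benjamini-Hochberg adjustment over all genes (adjusted p = 0.121). Prm2 (NCBI Gene 19119), a second protamine that is made as a precursor and trimmed on the DNA, was at 463 and 241 CPM against 31.6 and 2.95 CPM. All 4 values of Prm2 were ordered by genotype with a gap of 7.63 times between the groups, and the log2 difference was -4.13 ± 1.12 (SE), with an adjusted p of 0.0763 by the same test.

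The transition proteins, which occupy the DNA between histones and protamines, had the widest spread between replicates labelled Crtc1+/+. Tnp1 (NCBI Gene 21958) reached 50.8 and 12.0 CPM in the libraries labelled Crtc1+/+, against 5.94 and 0.794 CPM in eWAT labelled Crtc1-/-, a log2 difference of -2.98 ± 1.11 (SE, adjusted p = 0.140, edgeR). Tnp2 (NCBI Gene 21959) reached 209 and 49.4 CPM, against 28.8 and 3.06 CPM, a log2 difference of -2.80 ± 1.17 (SE, adjusted p = 0.170, edgeR). In both genes replicate 1 labelled Crtc1+/+ stood well above the other 3 eWAT libraries. Replicate 2 labelled Crtc1+/+ was above replicate 1 labelled Crtc1-/- by 2.02 times in Tnp1 and 1.72 times in Tnp2, less than the distance between the replicates of either genotype.

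The tail transcripts had close replicates labelled Crtc1+/+ and the largest differences. Odf1 (NCBI Gene 18285), a major protein of the outer dense fibres, reached 91.5 and 62.8 CPM in the eWAT libraries labelled Crtc1+/+, against 3.57 and 0.794 CPM in those labelled Crtc1-/-. It was 29.7-fold lower in eWAT labelled Crtc1-/-, at a log2 difference of -4.89 ± 0.74 (SE), and passed the test (edgeR, adjusted p = 0.0263). The size depended on the library kept, at -6.13 without replicate 1 labelled Crtc1-/- and -4.27 without replicate 2. Smcp (NCBI Gene 17235), a cysteine-rich protein of the mitochondrial capsule in the midpiece, was at 156 and 133 CPM against 6.11 and 1.02 CPM. It was 34.5-fold lower, at a log2 difference of -5.11 ± 0.85 (SE), and also passed (edgeR, adjusted p = 0.0292). Its log2 difference was -6.68 without replicate 1 labelled Crtc1-/- and -4.41 without replicate 2. For both genes the gap between the groups, 17.6 times in Odf1 and 21.8 times in Smcp, exceeded the distance between the replicates of either genotype.

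Akap4 (NCBI Gene 11643), the A-kinase anchoring protein that is the main component of the fibrous sheath, was at 54.7 and 45.3 CPM against 2.27 and 0.0567 CPM. The last value is a single count, in replicate 2 labelled Crtc1-/-, where the other 6 transcripts had 14 to 64 counts. Its log2 difference, -5.20 ± 1.31 (SE), was the largest of the 7 but did not pass (edgeR, adjusted p = 0.0655), and the distance between the libraries labelled Crtc1-/- was wider than for the other members.

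By edgeR's test, 2 of the 7 transcripts were therefore lower in eWAT labelled Crtc1-/- at an adjusted p under 0.05, against 5.54% of the 15391 genes tested, and 6 of 7 were lower at an unadjusted p under 0.05, against 17.1% of the genes tested. Both libraries labelled Crtc1-/- lay below both labelled Crtc1+/+ for all 7 transcripts, an order also found for 44.0% of the genes tested. DESeq2 called all 7 lower, against a background of 14.7%. The median log2 difference was -2.98 over the 4 chromatin transcripts and -5.11 over the 3 tail transcripts, beside -0.05 over all genes tested. Leaving out a library leaves 1 in its group, so such fits cannot decide whether the calls of Odf1 and Smcp rest on it. Without replicate 1 labelled Crtc1+/+ their log2 differences were -4.67 and -5.08, and without replicate 2 they were -5.09 and -5.17. Over the alternatives that kept every eWAT library, the adjusted p of Odf1 ran from 6.81e-12 (DESeq2) to 0.0543 (edgeR with a replicate block). For Smcp it ran from 4.06e-11 to 0.0558, with the same methods at the ends. With 2 libraries against 2, an exact permutation test of a single value cannot go below 0.333.

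**Figure D2:**
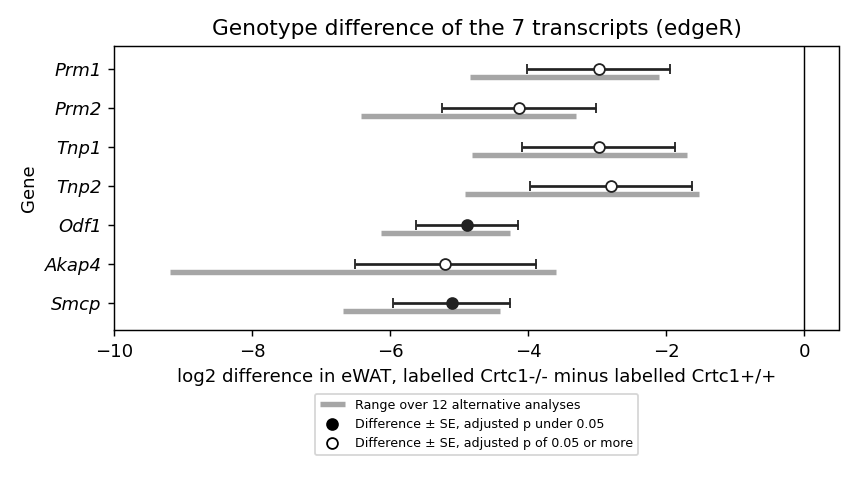
The log2 difference in eWAT (labelled Crtc1-/- minus labelled Crtc1+/+) of each transcript, with its SE as a black bar, filled where the adjusted p was under 0.05, and the range over 12 alternative analyses as a grey bar. All points and grey bars lie below 0, from -1.52 for Tnp2 to -9.19 for Akap4 at the ends of the grey bars, and Odf1 and Smcp are the filled points.

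Since mRNA length differs, levels were compared between genes as FPKM (fragments scaled to transcript length and library depth). In eWAT labelled Crtc1+/+ the order of mean FPKM was Prm2 (742 ± 324, SD, n = 2), Prm1 (579 ± 398), Tnp2 (322 ± 279), Smcp (196 ± 20.4), Tnp1 (113 ± 97.2), Odf1 (80.8 ± 20.9) and Akap4 (18.5 ± 2.42). Each neighbouring pair in that order overlapped between libraries, apart from Odf1 and Akap4. In replicate 1 labelled Crtc1+/+ Prm2, at 971 FPKM, lay above 99.2% of all genes, and in replicate 2, at 513 FPKM, above 98.9%.

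In eWAT labelled Crtc1-/- the order by mean FPKM was Prm1 (61.4 ± 67.7, SD, n = 2), Tnp2 (39.3 ± 45.2), Prm2 (36.0 ± 42.5), Tnp1 (11.9 ± 13.0), Smcp (4.78 ± 4.85), Odf1 (2.27 ± 2.05) and Akap4 (0.430 ± 0.580). The same order held in each of the 2 libraries, although every pair of neighbours overlapped between them. Prm1 and Tnp2 thus came before Prm2 in both libraries labelled Crtc1-/-, and Prm2 came first in both labelled Crtc1+/+. In replicate 1 labelled Crtc1-/- Prm1, at 109 FPKM, still lay above 94.9% of all genes, whereas Akap4, at 0.84 FPKM, lay above 36.5%.

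The 7 transcripts did not keep 1 ratio to each other across the eWAT libraries. The 4 chromatin transcripts made up 75.7% of the members' counts in replicate 1 labelled Crtc1+/+ (95% Wilson interval 75.2 to 76.3%) and 60.9% in replicate 2 (60.0 to 61.8%). They made up 88.8% (87.3 to 90.1%) and 84.8% (79.4 to 89.0%) in the libraries labelled Crtc1-/-. The shares were higher in both libraries labelled Crtc1-/- than in both labelled Crtc1+/+. The intervals cover counting error only, and reads without molecular identifiers are not independent molecules.

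Single genes moved differently within that total. Smcp held 12.5% and 21.6% of the members' counts in the libraries labelled Crtc1+/+ and 5.75% and 8.30% in those labelled Crtc1-/-. Prm1 held 17.5% and 11.9% against 26.3% and 29.5%, and Tnp2 held 16.8% and 8.004% against 27.1% and 24.9%. For these 3 genes the groups did not overlap, with Smcp lower and Prm1 and Tnp2 higher in the libraries labelled Crtc1-/-. Tnp1 was also higher, at 5.60% and 6.45% against 4.09% and 1.95% in the libraries labelled Crtc1+/+. Prm2 was lower, at 29.8% and 23.96% against 37.3% and 39.1%. Odf1 and Akap4 were lower as well, so no gene's share overlapped between the genotypes. The shares add up to the same total, so they are not independent, and no test was made of them.

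**Figure D3:**
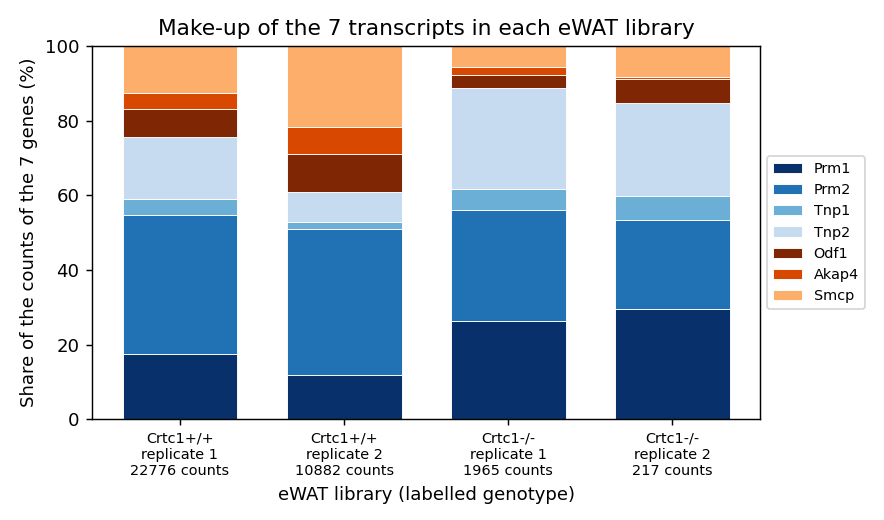
Share of the counts of the 7 genes (%) taken by each gene in the 4 eWAT libraries, with chromatin transcripts in blue, tail transcripts in orange and brown, and the total count of the 7 genes under each bar. The blue part takes 75.7% and 60.9% of the bars labelled Crtc1+/+ and 88.8% and 84.8% of those labelled Crtc1-/-.

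The replicates labelled Crtc1+/+ showed the same division. Replicate 1 was above replicate 2 by 1.17 times in Smcp, 1.21 times in Akap4 and 1.46 times in Odf1 (ratios of CPM). In the chromatin genes the ratio was 1.92 for Prm2, 2.97 for Prm1, 4.22 for Tnp1 and 4.24 for Tnp2. Among the 7 transcripts, no tail gene had a ratio as high as any chromatin gene. These ratios compare 1 library with 1 library, without a test. Over all genes tested in eWAT the median log2 ratio (CPM + 0.5) was 0.05, with the 5th percentile at -0.92 and the 95th at 1.79. Longer lists of tail genes did not keep to this division. Their median log2 ratio was 1.65 for the fibrous sheath and dense fibres and 2.71 for the mitochondrial sheath, against 1.80 for the chromatin transcripts. Between the replicates labelled Crtc1-/- the ratio of CPM was 40.0 for Akap4, which had 1 count in replicate 2. It was 7.49 to 10.7 for the chromatin genes, 4.49 for Odf1 and 5.98 for Smcp.

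In liver none of the 7 transcripts passed the expression filter, so none was tested, while 0.0854% of the 11707 genes tested were called in either direction. Prm2 was the highest, with 0 and 4 counts in liver labelled Crtc1+/+ and 6 and 1 counts in liver labelled Crtc1-/-. Tnp2 had 0 and 4 counts against 1 and 1. The other 5 genes had 0 to 2 counts in each liver library, and a count of 0 allows up to 0.181 CPM at the shallowest. These values overlapped between the genotypes and give no fold. The liver library with the most counts of the 7 genes, replicate 2 labelled Crtc1+/+ with 13, had 58 counts of the epididymal epithelium list, while replicate 1 labelled Crtc1-/- had 8 and 1951.

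In the fit of all 8 libraries, which asked whether the genotype difference in eWAT differed from that in liver, 0 of 7 transcripts passed edgeR's test, against 6.94% of the 15587 genes tested. Of the 7, 1 had an unadjusted p under 0.05, a smaller share than the 26.9% of all genes tested, and DESeq2 called 2, against 13.2% of all genes. The liver side of these terms rested on 0 to 6 counts per library.

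Other genes of the sperm nucleus mostly had negative differences, without a call. Of 12 further genes for spermatid chromatin that were in the table, 10 were tested in eWAT, 9 had a negative log2 difference (median -3.14), and 0 passed edgeR's test. Of these, 5 were lower at an unadjusted p under 0.05, and DESeq2 called 5 lower. For these counts and those of the lists below, the shares over all genes tested in eWAT were 17.1% lower at an unadjusted p under 0.05, 5.54% called lower by edgeR and 14.7% called lower by DESeq2. Prm3, a protamine-like gene of the same chromosome cluster, had 177 and 69 counts against 14 and 5 (log2 difference -3.41 ± 0.84, SE, edgeR adjusted p = 0.0622). Spem1, needed to shed the spermatid cytoplasm, had 732 and 318 counts against 62 and 7 (-3.71 ± 1.01, adjusted p = 0.0767). Neither gene overlapped between the genotypes.

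Among 15 regulators of spermatid transcription and translation, 13 were tested, 12 had a negative log2 difference (median -2.64) and 0 passed. Here 7 had an unadjusted p under 0.05 by edgeR and 6 were called lower by DESeq2. Ybx2, a protein that stores protamine mRNA, was at 145 and 31.8 CPM against 19.6 and 5.96 CPM (log2 difference -2.53, adjusted p = 0.124). Crem, the activator at cAMP response elements in spermatids, was at 12.0 and 6.76 CPM against 10.97 and 7.20 CPM (0.25, adjusted p = 0.729), and its groups overlapped. Crem is also expressed outside the testis.

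Genes of the fibrous sheath and dense fibres included 3 calls. Of 19 such genes 18 were tested, 17 had a negative log2 difference (median -2.65), and 3 were called lower. Oaz3, an antizyme of the sperm tail, was called at 208 and 122 CPM against 10.1 and 1.93 CPM (log2 difference -4.54, adjusted p = 0.0349). Odf2, a dense fibre protein also made in other tissues, was called at 210 and 119 CPM against 39.7 and 19.7 CPM (-2.19, adjusted p = 0.0418). The kinase gene Tssk3, active in spermatids, was called at 12.2 and 4.201 CPM against 0.324 and 0.114 CPM (-4.90, adjusted p = 0.0386). In all 3 the groups did not overlap. In the mitochondrial sheath list 9 were tested and 1 was called lower. That gene, Spata18, a regulator of mitochondria, was at 51.5 and 39.7 CPM against 1.84 and 0.340 CPM (-5.13, adjusted p = 0.0268). Gpx4, which hardens the capsule of sperm mitochondria but is made in most cells, had a positive difference (1.87, adjusted p = 0.0563). Values for single genes are from edgeR with 2 libraries in each group.

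The glycolytic enzymes of sperm were divided. All 7 were tested, all 7 had a negative log2 difference (median -3.84) and 0 passed, with 4 at an unadjusted p under 0.05 and 6 called lower by DESeq2. Gapdhs, a glycolytic enzyme bound to the fibrous sheath, was at 109 and 57.6 CPM against 4.81 and 0.510 CPM (log2 difference -4.74, adjusted p = 0.0511). Ldhc, the lactate dehydrogenase of germ cells, was at 145 and 11.4 CPM against 14.0 and 1.76 CPM (-3.07, adjusted p = 0.206). Replicate 1 labelled Crtc1+/+ exceeded replicate 2 by 12.8 times in Ldhc and by 1.89 times in Gapdhs, and for Ldhc replicate 2 labelled Crtc1+/+ lay below replicate 1 labelled Crtc1-/-.

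Genes of the acrosome and of meiosis were also mostly higher in replicate 1 labelled Crtc1+/+. In the acrosome list 10 genes were tested, 0 passed, 1 had an unadjusted p under 0.05 and DESeq2 called 1. All 10 were higher in replicate 1 than in replicate 2 labelled Crtc1+/+, with a median log2 ratio (CPM + 0.5) of 2.73. Acr, the gene for acrosin, had 241 and 15 counts against 33 and 19, so the groups overlapped. In the meiosis list 5 were tested, with a median log2 ratio of 2.72, and 1 was called lower, Spo11, which makes the breaks that start recombination, with 33 and 26 counts against 1 and 0 (adjusted p = 0.0447). Ion channel genes of the sperm gave 0 calls among 8 tested, 2 with an unadjusted p under 0.05 and 2 called by DESeq2.

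Markers of other cells of the male tract moved with these transcripts to different degrees. The summed CPM of the epididymal epithelium list came to 98910 and 113200 in the libraries labelled Crtc1+/+ but to 54.8 and 15.5 in the other eWAT libraries, with all 35 genes above 3 counts in both libraries labelled Crtc1+/+ and 15 above it in each labelled Crtc1-/-. Of its 35 genes 31 were called lower (median log2 difference -12.16). Gpx5, a secreted peroxidase of the caput epididymis, had 847069 and 976458 counts against 33 and 101. Between the replicates labelled Crtc1+/+ the median log2 ratio of this list was -0.09, against 1.80 for the chromatin transcripts. Its genes went both ways, from -1.22 (Teddm1b) to 0.54 (Defb9), with 14 of 35 higher in replicate 1.

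Genes of the testis outside the germ line gave no call. Of 6 Sertoli cell genes and 5 Leydig cell genes tested, 0 were called, none had an unadjusted p under 0.05 with a negative difference, and DESeq2 called none lower. Insl3, a hormone of Leydig cells, had 1657 and 26.4 counts in the libraries labelled Crtc1+/+ and 1102 and 164 in the others. Its counts were high in the replicate 1 of each genotype. Cldn11, a junction protein of Sertoli cells, had 612 and 349 counts against 430 and 5. Of the spermatogonial genes 3 were tested and 0 called, none with an unadjusted p under 0.05 and a negative difference and none by DESeq2. The part of these cell types in the values of the 7 transcripts was not tested.

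**Figure D4:**
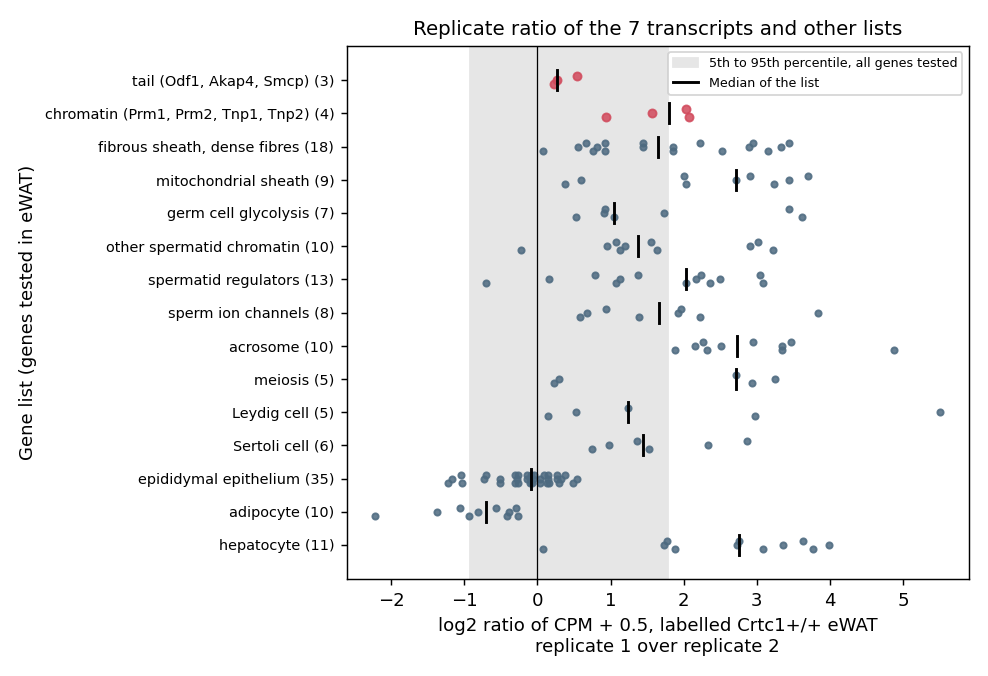
The log2 ratio of CPM + 0.5 between replicate 1 and replicate 2 of eWAT labelled Crtc1+/+, 1 point per gene tested, by list, with the list median as a black bar and the 5th to 95th percentile of all genes tested in grey. The 3 tail transcripts have a median of 0.27, the 4 chromatin transcripts 1.80 and acrosome genes 2.73, while the epididymal epithelium list centres on -0.09.

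Between the genotypes, the adipocyte genes ran against the sperm transcripts. The 10 adipocyte genes summed to 2559 and 3938 CPM in the libraries labelled Crtc1+/+, against 46260 and 21970 CPM in the other eWAT libraries. Of these, 8 of 10 were called higher, beside 1023 of the 15391 genes tested. The 7 transcripts summed to 1244 and 617.7 CPM against 106.2 and 12.31 CPM. The replicates labelled Crtc1+/+ thus went opposite ways for the 2 sums, but those labelled Crtc1-/- went the same way. Fabp4, the fatty acid carrier of adipocytes, was at 566 and 1181 CPM against 17910 and 7835 CPM (log2 difference 4.14, edgeR adjusted p = 0.0409). The 11 hepatocyte genes summed to 107200 CPM in replicate 2 labelled Crtc1-/-, the eWAT library in which all 7 sperm transcripts were lowest, and to 1293 to 6580 CPM in the other eWAT libraries. Between the replicates labelled Crtc1+/+ all 11 hepatocyte genes were higher in replicate 1 (median log2 ratio 2.76). Of the 11, 1 was called higher in eWAT labelled Crtc1-/-, beside 1023 of the 15391 genes tested. The part of the hepatocyte genes in the low values of replicate 2 labelled Crtc1-/- was not tested. Without that library, 4 of the 7 transcripts were called lower, against 5.33% of the genes tested, and the log2 differences ran from -1.96 to -4.41.

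**Figure D5:**
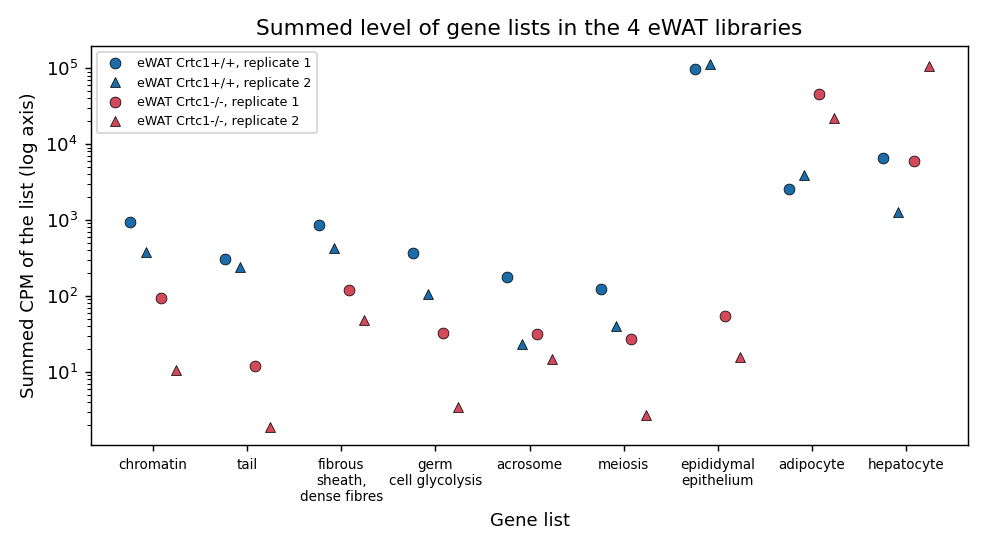
Summed CPM (log axis) of 9 gene lists in the 4 eWAT libraries, coloured by labelled genotype and shaped by replicate. Sperm lists other than the mitochondrial sheath, and the epididymal epithelium, are higher in the libraries labelled Crtc1+/+, except for an overlapping acrosome list. The mitochondrial sheath list summed to 622 and 363 CPM in the libraries labelled Crtc1+/+ against 1482 and 882 CPM. The adipocyte list is higher in those labelled Crtc1-/-, and the hepatocyte list is highest in replicate 2 labelled Crtc1-/-.

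Pearson's r between the members' log2(CPM + 0.5) over the 8 libraries ran from 0.924 (Tnp2 and Akap4) to 0.999 (Odf1 and Smcp). These points share libraries and include 4 liver libraries at or near the floor, so they are given as a description. The 5 genes of 15586 with the pattern most like each member are named in order of r. Prm1 had Tnp2 (r = 0.9983), Dhodh, Oip5, Kcnh2 and 4921536K21Rik. Prm2 had Cyfip2 (0.9985), Tcp11, Kcnh2, Hspa2 and Col4a6. Tnp1 had Dmrtb1 (0.9990), Sec1, 1700029F12Rik, Pnck and Irgc1, and Tnp2 had Prm1 (0.9983), Dhodh, Smim24, 4921536K21Rik and Gpbar1. Odf1 had Trim36 (0.9994), 4933411K16Rik, Smcp, Ap3b2 and Lelp1. Akap4 had Pdzph1 (0.9997), Defb29, Dmrtc1a, P2rx2 and Gm6760, and Smcp had Ap3b2 (0.9987), Odf1, Ccdc92b, Trim36 and Spint1. No gene was shared between the list of a chromatin member and that of a tail member. The lists of Tnp1 and Akap4 also shared no gene with members of their own class, so this absence does not separate the classes. The 35 closest genes, 5 for each member, were 30 distinct genes with r from 0.9961 to 0.9997, of which 4 were members themselves.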

How the data were processed

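RNA-seq of liver and eWAT, 2 libraries per tissue and labelled genotype, was used in full. The deposited gene table holds estimated counts, which are not normalized and are not whole for 5.44% to 9.98% of genes in a library. A further deposited table holds FPKM, scaled by the authors to transcript length and depth. Sequencing was done at BGI. The submitters' processing notes name HISAT, Bowtie2 and GRCm38.p6 without their role. The counting tool and annotation are not given in the sources used here. Reads shared between similar genes may be split by the counting tool.

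Counts were rounded. CPM used library totals. Within each tissue, genes were kept by filterByExpr, libraries were scaled by TMM, and the test was the quasi-likelihood method of edgeR 4.0.16 under R 4.3.3. P-values were adjusted by Benjamini-Hochberg over the genes that entered each fit, and 0.05 was the threshold. SE was the absolute log2 difference divided by the square root of F. The interaction of tissue and genotype was fitted on all 8 libraries. The study's own method was limma on normalized values. The alternatives were DESeq2 1.42.0, limma 3.58.1 on log2(FPKM + 1) and log2(FPKM + 0.1), no filter, scaling by library totals, TMM without the epididymis genes, 1 fit of all 8 libraries, the replicate number as a block, and each library left out in turn. Code was tested on simulated data.

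The members and the 16 gene lists (196 genes) were chosen with earlier results of these data known. Genes named from a list were up to 4 with the highest mean FPKM over the 8 libraries, and up to 3 further genes with the lowest p among those called in eWAT or liver. The 7 members, Crtc1 and the 5 genes most like each member were also named. Likeness was Pearson's r of log2(CPM + 0.5) among genes tested in the fit of all 8 libraries. Of 7 members, 6 matched the RefSeq promoter table. The labels do not say whether equal replicate numbers mark the same mouse. The methods call the replicates independent biological samples. In all, 458 genes had no count.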

Additional observations from a re-analysis of the deposited data

How the results depend on the processing

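The log2 difference of each of the 7 transcripts in eWAT stayed negative under all 12 alternatives. The count of called members, 2 with edgeR, was 7 with DESeq2, 4 with limma on log2(FPKM + 1) and on log2(FPKM + 0.1), 4 with all 8 libraries in 1 fit, and 0 to 7 with a library left out (0 without either library labelled Crtc1+/+, 7 without replicate 1 labelled Crtc1-/-, 4 without replicate 2 labelled Crtc1-/-). Among all genes the eWAT calls, 1875, became 4620 with DESeq2, 3861 in the 8-library fit and 0 to 3073 with a library left out. These calls count both directions, among 15391 genes tested with edgeR and with DESeq2 and 15587 in the 8-library fit. Of 15391 genes, limma called 2144 on log2(FPKM + 1) and 2048 on log2(FPKM + 0.1). With a library left out, 15697 to 16304 genes were tested. Such fits leave 1 library in a group, so their counts cannot decide whether the members stand apart from other genes. Scaling by library totals shifted the median of all genes to -0.35, with the members' median at -4.35. It moved the share of calls that were higher from 54.6% to 35.4%.

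With the replicate block, 0 genes and 0 members were called in eWAT (members' adjusted p 0.0543 to 0.0848), 82 genes in liver, and 1746 in the interaction. Deviations of same-numbered libraries correlated at -0.04 in eWAT and 0.07 in liver, which rests on 2 pairs in each tissue, so the libraries were not treated as pairs. Whether a number marks 1 mouse in both tissues is not given by the labels.

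In liver, where no member was tested, the 10 calls became 311 with DESeq2, 301 without a filter, 0 with either limma fit, 0 in the 8-library fit and 1 to 1506 with a library left out. For the interaction, the 1081 calls became 2056 with DESeq2, 705 with library totals, 2533 and 2390 with limma, and 0 to 2261 with a library left out, and the members called, 0, became 2 with DESeq2, 4 and 3 with limma, and 0 to 1. The cause of these changes was not tested. Depth limits the liver values, where 0 to 6 counts per library cannot show a difference.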
